A study of Homo sapiens with 6 samples.

Results

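RKO is an established human colon cancer cell line, and its chromatin accessibility was measured by ATAC-seq in 3 samples exposed for 16 h to 0.2 µM aphidicolin (APH) and in 3 samples given DMSO. Joining the 6 peak lists wherever peaks shared 1 bp or more gave 102784 regions. An APH-only region has a peak in at least 2 APH samples and in no DMSO sample, and 5330 of the 102784 regions, 5.19%, met this rule. The mirror rule, a peak in at least 2 DMSO samples and in no APH sample, was met by 1258 regions, 1.22%. Because peak calls chose the regions, their absence from DMSO and their number are descriptions and carry no test. Both conditions used the same line at low passage, grown at reduced oxygen, and all cells were treated with DNase and frozen before tagmentation. The replicates were described as independent experiments, and the lists held 65865, 77194 and 64511 peaks in DMSO beside 79807, 84510 and 70121 in APH.

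In ATAC-seq the Tn5 transposase inserts adapters into DNA that is not wrapped tightly in nucleosomes, so peaks mark promoters, enhancers and other open sites. Aphidicolin inhibits the replicative DNA polymerases, and at low dose it slows forks without stopping S phase and exposes common fragile sites, many of which lie in very long genes. A region is listed only where the signal passed the peak caller's threshold, so a region without a DMSO peak can still carry DMSO signal below it, and that signal is not in the lists. The value of a peak is the mean signal over it, with no scaling for library size. Sequencing depth is unknown, and counting intervals are therefore not given.

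APH-only regions that overlapped the window around a gene start were few. Of the 5330 regions, 73 overlapped a promoter window of the RefSeq table (GRCh38.p14), which runs from 250 bases before a start to 50 bases from it. The like-value shared regions served as comparison throughout. For each APH-only region, this set holds the unused region nearest in mean APH value among those with a peak in at least 2 APH and at least 2 DMSO samples. Of these 5330 regions, 172 overlapped a window. The 79 windows under APH-only regions had a median GC content of 52.3%, against 62.7% for the 223 windows under like-value shared regions and 58.7% over all 34943 windows. A GC box (GGGCGG or its reverse complement CCGCCC) was found in 25.3% of the windows under APH-only regions, in 56.5% of those under like-value shared regions and in 44.9% of all windows. A CCAAT box (CCAAT or ATTGG) was found in 26.6%, 31.8% and 34.6%, and TATAAA or TTTATA in 17.7%, 8.97% and 11.6%. The AP-1 motif TGANTCA was in 10.1%, 12.1% and 7.72%, and the E box CACGTG in 3.8%, 8.07% and 7.23%. Of the DMSO-only regions, 39 (3.10%) overlapped a window, and their 44 windows had a median GC content of 66.5%. In these windows the GC box was found in 63.6%, the CCAAT box in 27.3% and TATAAA or TTTATA in 11.4%. The AP-1 motif was in 2.27% of them and the E box in 11.4%. A match is a match of letters and not a bound site.

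The sequences before the start that lie inside APH-only regions are shown for 5 promoters. These had the highest lowest value over the 3 APH samples among those with at least 100 bases covered. In ACVR1 the covered stretch ends at base -7, so its region stops short of the start. All 5 were chosen after the values were seen. Capitals mark any of the 5 motifs on either strand, and no motif overlaps another in these stretches. CTDSP1, a phosphatase acting on the tail of RNA polymerase II, is shown from chr2:218396930-218397125 on the plus strand. PIK3R3, a regulatory subunit of phosphoinositide 3-kinase, is from chr1:46131772-46132021 on the minus strand. CUL1, the scaffold of SCF ubiquitin ligases, is from chr7:148697569-148697755 on the plus strand. ACVR1, a type I receptor for bone morphogenetic proteins, is from chr2:157875006-157875249 on the minus strand. GDF15, a stress-induced cytokine of the TGF-β superfamily and a p53 target, is from chr19:18386030-18386157 on the plus strand. All are GRCh38.p14, from RefSeq, and run 5′ to 3′ toward the start.
CTDSP1: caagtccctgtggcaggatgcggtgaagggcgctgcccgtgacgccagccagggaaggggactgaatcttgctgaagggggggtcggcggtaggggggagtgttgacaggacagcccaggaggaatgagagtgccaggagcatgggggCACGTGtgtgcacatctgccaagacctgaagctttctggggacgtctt
PIK3R3: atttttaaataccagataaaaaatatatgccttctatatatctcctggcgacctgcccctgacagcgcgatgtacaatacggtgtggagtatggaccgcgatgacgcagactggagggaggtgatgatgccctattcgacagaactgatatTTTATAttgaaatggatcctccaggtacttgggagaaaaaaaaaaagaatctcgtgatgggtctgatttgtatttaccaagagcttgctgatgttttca
CUL1: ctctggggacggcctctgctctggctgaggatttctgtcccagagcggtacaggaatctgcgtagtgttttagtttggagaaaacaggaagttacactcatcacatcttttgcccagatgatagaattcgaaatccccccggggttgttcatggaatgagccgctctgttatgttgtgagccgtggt
ACVR1: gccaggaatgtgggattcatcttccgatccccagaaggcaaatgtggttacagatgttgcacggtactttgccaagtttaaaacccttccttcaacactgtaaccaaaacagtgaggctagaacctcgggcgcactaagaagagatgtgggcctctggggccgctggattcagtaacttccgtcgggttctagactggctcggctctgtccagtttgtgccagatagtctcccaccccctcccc
GDF15: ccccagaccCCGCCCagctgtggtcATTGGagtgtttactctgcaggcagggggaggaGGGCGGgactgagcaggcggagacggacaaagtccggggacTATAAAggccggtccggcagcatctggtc

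The CTDSP1 region had values of 82.8, 81.9 and 89.9 in the 3 APH samples, and the CUL1 region 65.3, 61.4 and 93.2. The GDF15 region was weaker, at 41.6, 41.1 and 39.6. GDF15 was the only promoter shown that held GC boxes, 2 of them, together with 1 CCAAT box and 1 TATAAA. The stretches of CUL1 and ACVR1 held none of the 5 motifs.

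An APH-only region also covered a microRNA hairpin in 3 cases, against 2 among the like-value shared regions. These were looked up after the regions were known. The strongest lay in the body of VMP1, an autophagy gene, at chr17:59841239-59841479, and covered all 72 bases of the hairpin of MIR21 (chr17:59841266-59841337, plus strand), whose mature product is among the most abundant microRNAs of many tumour cells. Its values were 180 in APH replicate 1, 182 in replicate 2 and 142 in replicate 3, and replicate 3 was the lowest. A region on chromosome X inside CLCN5 covered 69 of the 86 bases of the MIR188 hairpin and had values of only 24.4 and 22.4 in APH replicates 1 and 2, with no peak in replicate 3. The third, beside the start of CREB3, reached 5 of the 74 bases of the MIR6853 hairpin. For the 2 hairpins that were mostly covered, the mature sequences in the RefSeq table are given with the seed (bases 2 to 8) in capitals, and no seed is shared among them. The peaks measure open DNA at the hairpin and not the amount of the microRNA.
hsa-miR-21-5p: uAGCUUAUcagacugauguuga
hsa-miR-188-5p: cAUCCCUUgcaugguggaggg
hsa-miR-188-3p: cUCCCACAugcaggguuugca

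Of the 5330 APH-only regions, 1136 had a peak in all 3 APH samples and 4194 in 2. The pair of replicates 1 and 2 gave 2538 regions, replicates 2 and 3 gave 981, and replicates 1 and 3 gave 675. APH replicate 1 had a peak in 4349 of the regions, replicate 2 in 4655 and replicate 3, the shortest APH list, in 2792. Just outside the rule lay 13715 regions with a peak in 1 APH sample and no DMSO sample, with a median value of 23. A further 4389 regions had peaks in 2 APH samples and 1 DMSO sample, with a median APH value of 26.1. The regions just inside, with peaks in exactly 2 APH samples and no DMSO sample, had a median of 24.5, and those with all 3 had 25.8.

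The ratio of APH-only to DMSO-only regions changed with how peaks were limited. With the lists as deposited, there were 4.24 APH-only regions per DMSO-only region. When the same number of strongest peaks, 64511, was kept in every sample, there were 2291 APH-only and 2468 DMSO-only regions, a ratio of 0.93. This kept peaks down to values of 26.5, 29.1 and 21.9 in APH replicates 1 to 3 and down to 19.6, 26.4 and 15.5 in DMSO replicates 1 to 3, so the lowest value kept differed between samples. With 1 common limit, a value of 25 or more in every sample, there were 3934 APH-only regions and the ratio was 4.02. Regions with peaks in all 3 samples of a condition numbered 1136 in APH and 189 in DMSO with the deposited lists, and 499 and 539 with equal lists. Of the 5330 APH-only regions, 1732 (32.5%) overlapped an APH-only region of the equal lists and 2255 (42.3%) had no peak left in any sample. The number also moved with single samples. It was 9830 without DMSO replicate 2, the longest DMSO list, 1809 without APH replicate 2 and 2120 without APH replicate 1. The ratio to DMSO-only regions was 25.5, 0.71 and 1.01 in these cases, so that it turned below 1 without APH replicate 2. Leaving out a sample also changes what the rule asks, since the 2 remaining samples of that condition must then all have or all lack a peak.

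**Figure D1:**
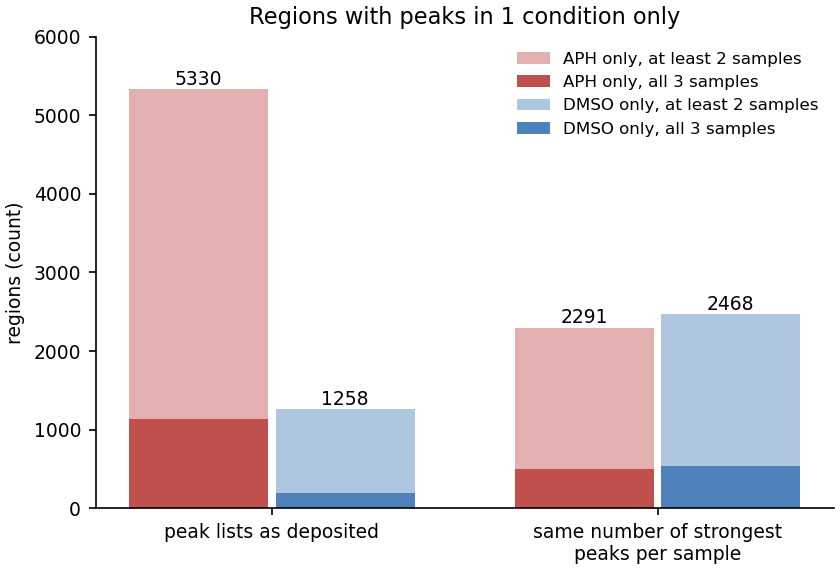
The bars give the number of APH-only (red) and DMSO-only (blue) regions, with those found in all 3 samples of the condition in full colour, for the deposited lists and for lists cut to the same number of strongest peaks. The deposited lists gave 5330 and 1258 regions, and the equal lists 2291 and 2468.

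Whether such regions recur in a sample that did not choose them was examined by holding out 1 APH and 1 DMSO sample. Regions were chosen on the other 4 samples as having a peak in both APH and in neither DMSO sample, and were then looked up in the held-out samples. Over the 9 ways to do so, which share samples and therefore carry no p, a mean of 54.7% of the chosen regions had a peak in the held-out APH sample, with a range of 33.8% to 73.6%. In the held-out DMSO sample the mean was 31.9%, with a range of 18% to 52.1%. The APH sample had the higher share in 8 of 9 cases. In the exception, with APH replicate 3 and DMSO replicate 2 held out, the shares were 38% in APH and 49.9% in DMSO. These are the shortest APH list and the longest DMSO list. For the mirror choice, regions with a peak in both DMSO and in neither APH sample, the held-out DMSO sample was higher in only 4 of 9 cases, with means of 44.1% in DMSO and 45.7% in APH.

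With equal lists the same look-up was more even between the conditions. The regions chosen as APH only had a peak in a mean of 52.6% of cases in the held-out APH sample and 37.9% in the held-out DMSO sample. The APH sample was again higher in 8 of 9 cases, by 14.7 percentage points on average, within a range of -1.18 to 21.5. The mirror choice now gave a mean of 52.6% in the held-out DMSO sample and 37.5% in the held-out APH sample, with the DMSO sample higher in 8 of 9 cases. Some regions of each kind therefore recurred in their own condition at equal list length, and many of them had a peak in the other condition.

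**Figure D2:**
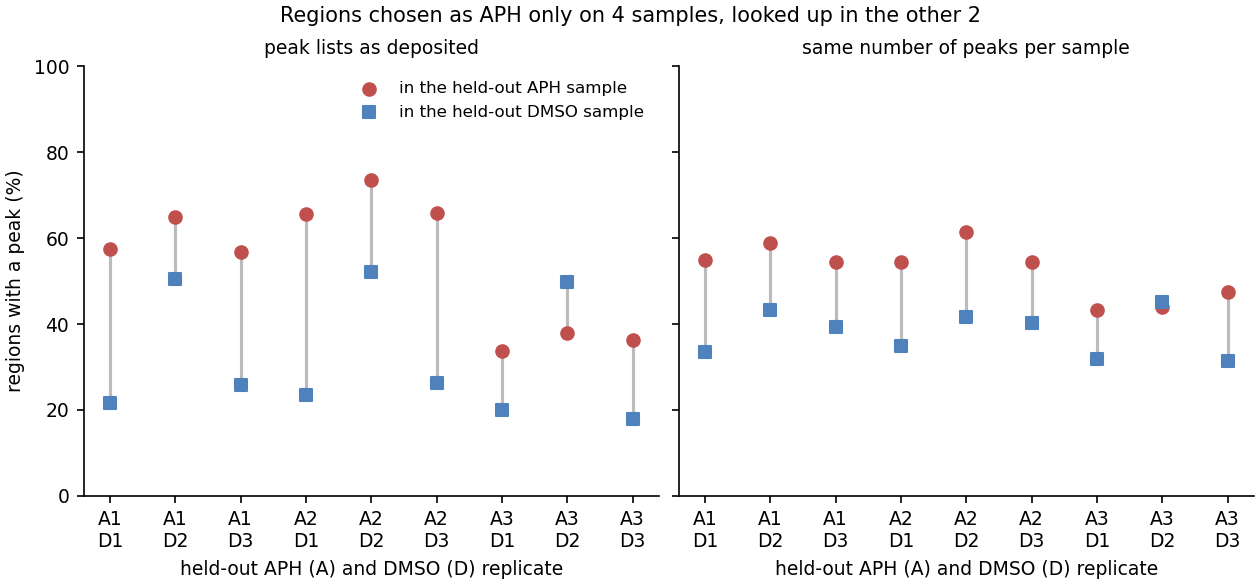
Each vertical pair gives the percent of regions, chosen as APH only on 4 samples, that had a peak in the held-out APH sample (red circles) and in the held-out DMSO sample (blue squares), for the 9 pairs named under the axis. The red circle is above the blue square in 8 of 9 pairs in both panels, and the exception in both is APH replicate 3 with DMSO replicate 2.

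APH-only regions were weak. Their median value was 24.8, with quartiles of 22.2 and 30.2, whereas regions called in all 6 samples had a median APH value of 67.8. In the single samples, the median over the regions was 24.7 in APH replicate 1, 25.7 in replicate 2 and 24.1 in replicate 3. Among all peaks of the same sample, these medians lay at percentiles 14.8, 16.4 and 14.2. Between 90.5% and 91.2% of the APH-only peaks lay below their sample's median peak. The lowest value in the 3 samples lay between 15.1 and 16.0, near the lowest value of any peak, and the highest between 191.5 and 220.4.

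They were also narrow. The merged APH-only regions had a median width of 292 bp, against 344 bp for the like-value shared regions, 289 bp for DMSO-only regions and 451 bp for regions with peaks in all 6 samples. A merged region widens with the number of samples it joins, so the APH peaks themselves were compared as well. Their width was taken as the summed length of a sample's peaks in the region, averaged over the APH samples with a peak. The median of this width was 252 bp in APH-only regions and 280.5 bp in the like-value shared regions, so a difference of -28.5 bp remained. It stayed between -49 and -26.5 bp when any 1 sample was left out, and was -51.5 bp with equal lists.

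By position, APH-only regions differed little from shared regions of like value. By the midpoint, 285 of 5330 (5.35%) fell no more than 1 kb from a protein-coding or lncRNA start, 3005 (56.4%) in a gene body and 2040 (38.3%) between genes. The corresponding shares of the like-value shared regions were 5.46%, 57.2% and 37.4%. Each difference was under 1 percentage point, and the sign of the promoter and intergenic differences turned with several settings, so neither direction is stated. The 2 sets stood apart from regions with peaks in all 6 samples, of which 26.3% were promoters, 44.2% gene bodies and 29.5% intergenic. DMSO-only regions were promoters in 9.94% of cases. With equal lists, 9.56% of the APH-only regions were promoters.

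Within promoters, the APH-only regions lay to the side of the start. The median distance of the promoter members to the nearest start was 581 bp, against 181 bp for the like-value shared regions and 512 bp for DMSO-only regions. Of the promoter members, 26.3% lay within 250 bp of a start, against 57.7% of the like-value promoter regions. When promoters were taken as 2.5 kb on each side, the promoter share of APH-only regions was above that of like-value shared regions by 2.40 percentage points.

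The gene density around them was close to that of shared regions. A median of 7 protein-coding gene starts lay within 500 kb of an APH-only region, with quartiles of 3 and 11, against 6 for like-value shared regions and 9 for regions with peaks in all 6 samples. The difference of 1 start fell to 0 when APH replicate 3, DMSO replicate 1 or DMSO replicate 2 was left out. The nearest protein-coding start was at a median of 41.3 kb from an APH-only region and 46.7 kb from a like-value shared region. No coding start lay within 500 kb of 4.0% of the APH-only regions and of 5.35% of the like-value shared regions. A second APH-only region lay within 10 kb of 277 of the 5330, 5.20%, against 3.70% for the like-value set.

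The stronger APH-only regions had other surroundings than the weak majority. Of the 2774 regions with a mean value below 25, 64.6% had no other region with a DMSO peak within 10 kb, and 2.45% were promoters. In the same class, 63.8% of like-value shared and 58.6% of DMSO-only regions had no such neighbour. Of the 428 APH-only regions with a value of 50 or more, only 2 (0.47%) had no such neighbour, and 25.2% were promoters. The like-value shared regions had promoter shares of 3.46% and 25% in the same classes. In the class of 35 to 50 the shares were 14% of APH-only and 7.44% of like-value shared regions. Among the APH-only regions of 50 or more with such a neighbour, the strongest had a median mean DMSO value of 194, with quartiles of 133 and 270. Of the 428 like-value shared regions of the same class, 33.2% had no such neighbour, and the median over the rest was 78.4. DMSO-only regions of 50 or more showed the same pattern, with a median strongest neighbour of 187 and 0 of 194 without one. The median number of coding starts within 500 kb was 6, 7, 11 and 13 in the classes below 25, 25 to 35, 35 to 50 and 50 or more. It was 6, 6, 8 and 10 in like-value shared regions and 6, 9, 16.5 and 15 in DMSO-only regions. The strong APH-only and DMSO-only regions thus lay near stronger regions with DMSO peaks more often than shared regions of like value did. The part that the neighbouring signal had in these calls was not tested.

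**Figure D3:**
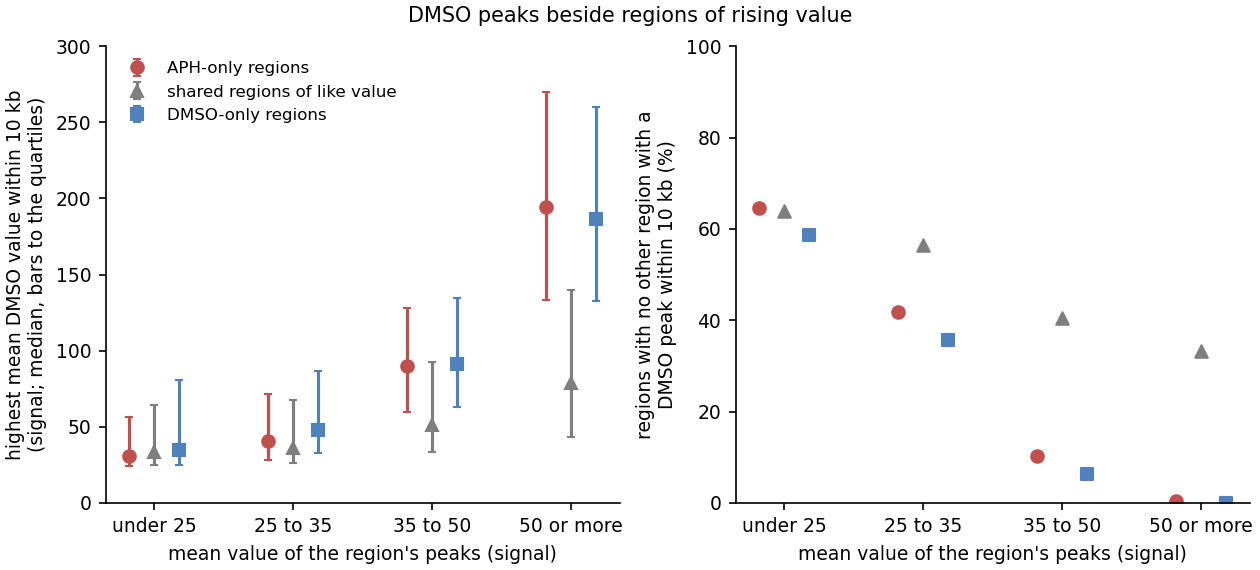
The left panel gives the median, with quartiles, of the highest mean DMSO value of any other region within 10 kb, by the mean value of the region itself. Regions without such a neighbour are left out there, and the right panel gives their percent. At values of 50 or more, APH-only (194) and DMSO-only regions (187) lie above the shared regions of like value (78.4).

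The 10 APH-only regions with a peak in all 3 APH samples and the highest lowest value all had such a neighbour. The highest lay within RPL13A, a protein of the large ribosomal subunit, at chr19:49491981-49492248, with values of 165.8, 177.1 and 160.0 in APH replicates 1 to 3. It was 107 bp from a region with DMSO peaks, and the strongest region within 10 kb had a mean DMSO value of 527. The VMP1 region over MIR21 came next, 483 bp from a region with DMSO peaks and beside a region of 409. The region 170.9 kb from the start of HMGA2, an architectural chromatin protein, had values of 129, 143 and 124 beside a region of 434.

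The region 576 bp from the start of CREB3, a transcription factor of the endoplasmic reticulum membrane, had values of 143, 161 and 123, at 170 bp from a region with DMSO peaks. The region 1557 bp from the start of LIF, a cytokine of the interleukin-6 family, had values of 104, 142 and 135 and was 89 bp from a region with DMSO peaks. Its strongest neighbour, at 151, was the weakest among the 10. The other 5 lay in LBHD1, SAMD10, LENG9 and BBLN and beside POMT1, a protein O-mannosyltransferase. Their lowest values ran from 111.8 to 124.3 and their strongest neighbours from 204 to 310. In all 10 the nearest region with a DMSO peak was within 1423 bp.

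**Figure D4:**
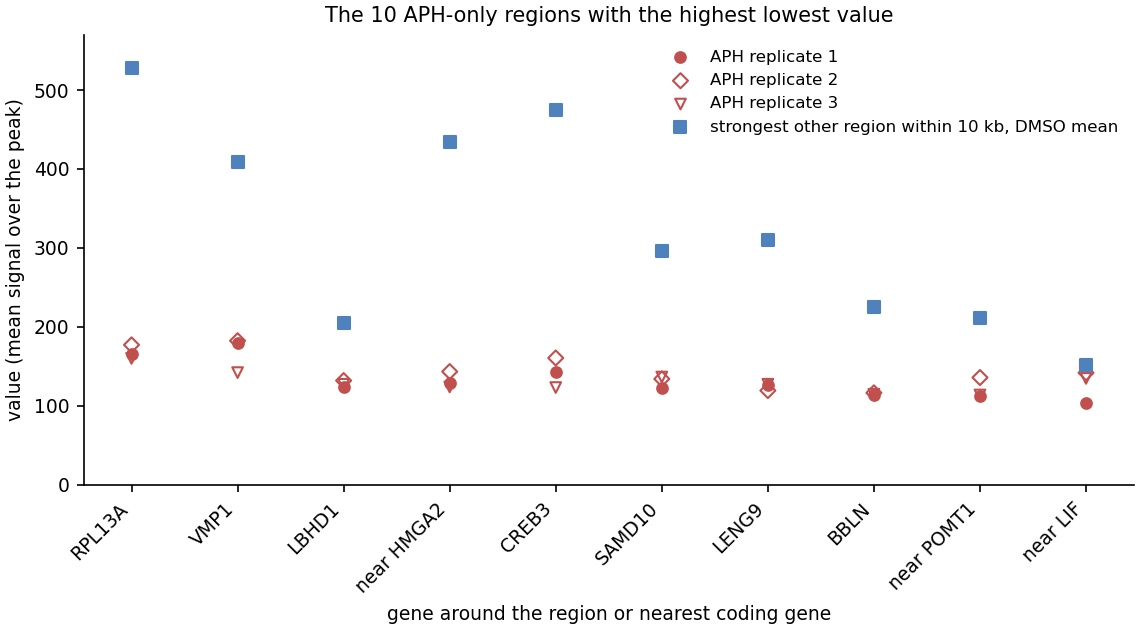
For each of the 10 APH-only regions with the highest lowest value, the 3 red symbols give the values of the APH samples and the blue square the highest mean DMSO value of another region within 10 kb. The blue square is above all 3 red symbols in all 10 regions, from 151 near LIF to 527 at RPL13A.

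Among APH-only regions with a peak in all 3 APH samples and within 1 kb of a protein-coding start, the 10 with the highest lowest value were at CREB3, EMC9, C1orf174, KRTAP4-16, LNPEP, ARID3B, CTDSP1, MICOS13, TRMO and PIK3CA. EMC9 belongs to the membrane protein complex of the endoplasmic reticulum, and its region had values of 105.0, 106.6 and 96.3 at 842 bp from the start. LNPEP is an aminopeptidase, and its region had values of 85.4, 89.2 and 101 at 860 bp. PIK3CA is the catalytic alpha subunit of phosphoinositide 3-kinase, and its region had values of 83.4, 75.3 and 71.7 at 910 bp, the last being the lowest single value among the 10. MICOS13, a subunit of the complex that shapes mitochondrial cristae, had values of 79.2, 94.3 and 80.4 in a region only 4 bp from a region with DMSO peaks. Only CTDSP1, at 42 bp, and MICOS13, at 199 bp, had their midpoints within 250 bp of the start. All 10 had a neighbour within 10 kb with a mean DMSO value above 200, from 202 at CTDSP1 to 475 at CREB3.

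The genes that held most APH-only regions were mostly long. TRAPPC9, a subunit of a vesicle tethering complex, held 8 of them among 49 merged regions in 731 kb, with mean values between 27.1 and 34.0, and 1 like-value shared region. CAMTA1, a calmodulin-binding transcription factor, held 7 of 49 in 984 kb, beside 5 like-value shared regions. PRKCE, an isoform of protein kinase C, held 7 of 28 in 537 kb, beside 4. Tied at 5 were LPP, with 29 merged regions, STAU2 with 28, PTPRD with 27, EHMT1 with 23, SNTG1 with 13 and ZNF618 with 8. ZNF618 was the shortest of them at 180 kb. TRAPPC9, STAU2 and SNTG1 lie on chromosome 8 and PTPRD, EHMT1 and ZNF618 on chromosome 9. In all, 88 protein-coding genes held 3 or more APH-only regions, and 85 held 3 or more like-value shared regions.

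Among genes of common fragile sites, the list of 29 long genes held 40 APH-only regions in 22 genes, with 46 like-value shared regions and 10 DMSO-only regions. Regions were assigned to a gene when within it or 10 kb of it, and 6.94% of all merged regions there were APH-only, beside 5.19% in the genome. The region with the highest lowest value, assigned to the cadherin gene CDH13, lay inside the neighbouring HSBP1 and had values of 50.6 and 49.4 in APH replicates 1 and 3. In IMMP2L, which encodes a subunit of a mitochondrial inner membrane peptidase, a region had 55.4 and 49.0 in replicates 1 and 2. In FHIT, the hydrolase gene at the fragile site FRA3B, 1 region had values of 28.6 and 20.3 in replicates 1 and 3. In WWOX, the oxidoreductase gene at FRA16D, 1 region had 19.7 and 32.1 in replicates 1 and 2. Each of these 4 lacked a peak in 1 APH sample, and 7 of the 40 had a peak in all 3. The list of 32 neuronal adhesion genes held 19 APH-only regions, 6.09% of its 312 regions, and 27 like-value shared regions. OPCML, a membrane-anchored adhesion protein, held 3 of the 19.

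The share of merged regions that were APH-only lay on both sides of the genome's 5.19% in the other lists. Among 26 p53 targets there were 3, or 2.33% of the list's regions, at GDF15, at AEN, an apoptosis nuclease, with 38.1 and 29.5 in replicates 1 and 2, and at ZMAT3, an RNA-binding protein, with 27.7, 28.3 and 19.5. Like-value shared regions numbered 2 there. Among 40 replication and checkpoint genes there were 5 (2.49%), beside 3 like-value shared and 4 DMSO-only regions. Of these, 2 were in or within 10 kb of GINS1 and 1 was in GINS2, both subunits of the GINS complex of the replicative helicase, and 1 each in or beside POLA2, of DNA polymerase alpha, and POLE, the catalytic subunit of DNA polymerase epsilon. The GINS2 region had values of 45.8, 51.7 and 51.7. The 11 AP-1 genes held 1 (2%), in FOSL2, with 24.2, 23 and 18.7. The 11 lamina genes held 0. The 392 olfactory receptor genes held 14 (8.43%) beside 15 like-value shared regions, and the 510 zinc finger genes 74 (4.51%) beside 65. LMNA, which encodes lamins A and C, had 9 regions with peaks in all 6 samples and no APH-only region within the gene or 10 kb of it. BMP1, a procollagen protease, had no APH-only region among 8 regions, and at DPPA2, a gene of pluripotent cells, no region was found.

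APH-only regions were found on chromosomes 1 to 22 and X and were most frequent on chromosome 8. At least 1 was found in 2141 of the 2890 windows of 1 Mb that held any region (74.1%), and the median over those windows was 2. Chromosome 8 held 467 of them and 287 like-value shared regions, or 10.6 and 6.53 per 100 regions with a peak in at least 2 APH samples. Over the genome both stood at 7.20 per 100, by construction of the comparison. Most of the difference on chromosome 8 lay beyond the widest stretch without peaks, from 43.5 to 45.2 Mb, with 394 APH-only and 198 like-value shared regions, while 73 and 89 lay before it. DMSO-only regions numbered 41 beyond the stretch. Equal lists gave 221 APH-only and 75 DMSO-only regions beyond the stretch, against 31 and 29 before it and 2039 and 2364 on all other chromosomes. Chromosome 9 held 300 APH-only and 214 like-value shared regions, and the equal lists gave 166 APH-only and 121 DMSO-only regions there. Of the 12 windows of 1 Mb with the most APH-only regions, 4 were on chromosome 8 and 3 on chromosome 9. The window from 135 to 136 Mb of chromosome 9 held the most, 12 of its 109 regions, beside 2 like-value shared regions. These windows were named after their values were seen.

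Shared regions on chromosome 8, which the rule did not use, also stood higher in every APH sample, relative to all shared regions of the same sample. Beyond the stretch, 2032 regions were called in each of the 6 samples, and their mean log2(value + 1) relative to all such regions was 0.03, 0.05 and -0.01 in DMSO and 0.17, 0.16 and 0.10 in APH. The APH mean was higher by 0.12 on the log2 scale without overlap of the groups (two-sided p = 0.1 by exact permutation, which is as low as 3 samples against 3 can reach). The comparison was chosen with the value known. On the whole of chromosome 8 the difference was 0.09, and on the other 22 chromosomes it ran from -0.12 on chromosome 19 to 0.04 on chromosome 4. The APH samples lay wholly above the DMSO samples on 7 of 23 chromosomes (30.4%) and wholly below on 7 (30.4%), and adjusted over the 23 chromosomes the p for chromosome 8 was 0.164 (exact permutation test, Benjamini-Hochberg). On single regions beyond the stretch, all APH values were above all DMSO values in 201 of 2032, 9.89%, where the share over all 50150 shared regions was 4.21%.

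**Figure D5:**
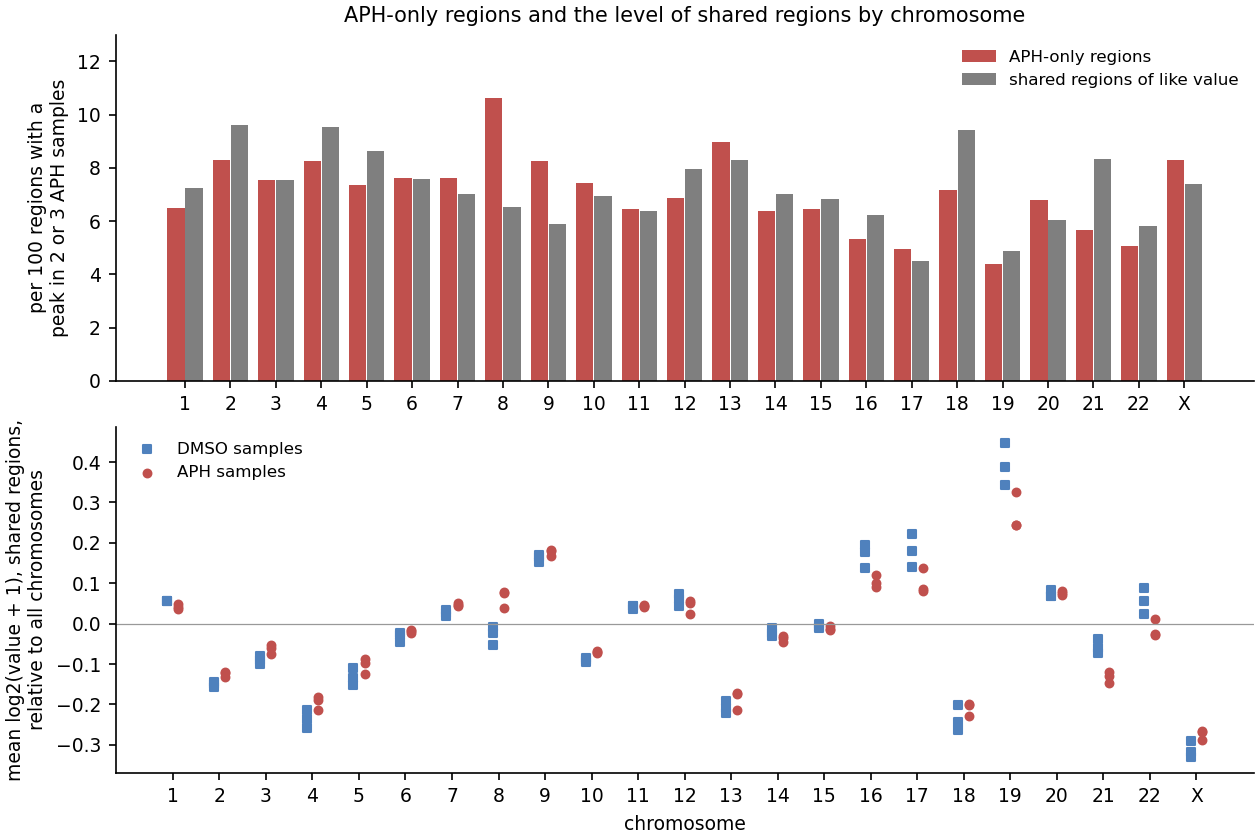
The upper panel gives, for each chromosome, APH-only regions (red) and shared regions of like value (grey) per 100 regions with a peak in at least 2 APH samples, and the lower panel the mean log2(value + 1) of regions called in all 6 samples relative to all chromosomes, with 1 symbol per sample. Chromosome 8 has 10.6 APH-only regions per 100 against 6.53 of like value, and all 3 APH samples there are above the 3 DMSO samples, as they are on 6 other chromosomes.

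Over the genome, no rise in APH was detected in the shared regions beside APH-only regions. Of the 50150 regions called in all 6 samples, 2747 lay within 10 kb of an APH-only region. Their mean log2(value + 1), relative to all 50150, was 0.18, 0.15 and 0.19 in DMSO and 0.14, 0.14 and 0.18 in APH. The groups overlapped, and the difference of -0.02 lay within the spread between samples (exact permutation test, two-sided, p = 0.3). Each APH sample nevertheless lay below the DMSO sample of the same number. The exact permutation test on these paired differences gave p = 0.25, the smallest it can give. All APH values were above all DMSO values in 129 of the 2747 (4.70%), close to the 4.21% over all 50150, and below in 454 (16.5%), where the share over all was 14.4%. Beside DMSO-only regions, 933 shared regions gave a difference of -0.08 (exact permutation test, two-sided, p = 0.2). Among these 933, all APH values were above in 29 (3.11%) and below in 216 (23.2%). With limma and Benjamini-Hochberg adjustment over the 50150 regions, 0 of the 2747 and 0% of all regions passed an adjusted p of 0.05. That fit held no term for replicate number. With replicate number added as a block, 441 of the 2747 passed, 50 higher and 391 lower in APH. Over all 50150 regions the block gave 6604, 1021 higher and 5583 lower. The replicate numbers were not taken as pairs, so the block is an alternative only. Without the block, at an unadjusted p under 0.05, limma gave 74 higher and 344 lower among the 2747 (15.2%). Over all 50150 it gave 1235 higher and 5062 lower (12.6%).

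Peaks seen in only 1 sample, which the rule leaves out, were more frequent in APH on average. They made up 5.47%, 7.70% and 4.05% of the peaks in the APH samples and 1.86%, 4.07% and 2.48% in the DMSO samples. The groups overlapped, since APH replicate 3 was slightly below DMSO replicate 2. The difference of 2.94 percentage points did not pass (exact permutation test, two-sided, p = 0.2), and with equal lists it was -0.39 (exact permutation test, p = 0.9).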

How the data were processed

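Peak lists of 6 RKO ATAC-seq samples, 3 per condition, were analysed. Per the labels and the study's methods, the authors aligned reads to hg38 with BWA 0.7.12, removed duplicates, called peaks in each sample with MACS2 2.1.0 without a control, and removed blacklisted peaks. The deposited value of a peak is its mean signal (coverage), not scaled to library size. Depth is unknown, and its part in which peaks were called was not tested. No shift of reads to the Tn5 cut site is named.

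Overlapping peaks were merged, and a region's value is the length-weighted mean of its peaks. Gene spans, starts and sequences came from RefSeq (GRCh38.p14), with strand from GENCODE where RefSeq tables lacked it. A start was known for 98.2% of 20037 protein-coding genes. Exons and introns were not separated. Values were compared as log2(value + 1) with limma 3.58.1 (intensity trend) and two-sided exact permutation tests over samples (R 4.3.3, Python 3.11.15, scipy 1.17.1, pandas 2.3.3, numpy 2.4.6, matplotlib 3.10.9). The steps were tested on simulated data and small cases.

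The regions, gene lists and named-region rules (the 10 strongest in all 3 APH samples, the 10 strongest at coding starts, the genes with most members, list genes, and BMP1, DPPA2 and LMNA) were chosen with earlier results of these data known. Alternatives covered list length, peaks and overlap needed, value threshold, promoter size, gene set, comparison pool, pseudocount, centring, normalization, a replicate block and each sample left out.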

Additional observations from a re-analysis of the deposited data

How the results depend on the processing

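Of 125 alternatives over 12 results, 82 were counted as leaving the result as it was, 26 as moving it and 17 as reversing it. Counts were held to 1.5 times and other results without a p to the spread. For neighbouring shared regions, peaks in no other sample and chromosome 8, only the direction and the side of 0.05 of the exact p counted. That p could not fall below 0.1, so only a reversal could be recorded there. The 82 include 9, 7 and 9 alternatives of these, and some exceeded the spread. Requiring a peak in all 3 APH samples gave 1136 APH-only regions, a promoter difference from like-value shared regions of 1.06 percentage points (-0.11 as reported), an intergenic difference of 3.43 points (0.92 as reported) and a width difference of -47 bp. Equal lists gave 2291 regions, 0.928 per DMSO-only region, differences of 1.05 points at promoters and -1.44 points between genes, -68 bp for merged width and -51.5 bp for the APH peaks themselves, and a difference in peaks found in no other sample of -0.393 points. With protein-coding genes only, the promoter difference was 0.488 and the intergenic difference -0.432 points, and with promoters of 2.5 kb the first was 2.40 points. Without regions within 1 kb of a DMSO peak, it was -1.72 points, the difference in coding starts was 0 and that in width -47 bp. With peaks of value 25 or more the difference in coding starts was 0, and with comparison regions called in all 6 samples the width difference was -80.5 bp. For shared regions within 50 kb of an APH-only region, the log2 difference was 0.0016. The cause of these changes was not tested.

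Leaving out each sample in turn gave 1809 to 9830 APH-only regions, 0.711 to 25.5 per DMSO-only region, promoter differences of -1.28 to 0.976 points (0.425 without APH replicate 1 and 0.884 without APH replicate 2), intergenic differences of -0.387 to 3.20 points (-0.275 without DMSO replicate 2 and -0.274 without DMSO replicate 3), 0 to 1 coding starts, and widths of -63 to -51 bp merged and -49 to -26.5 bp for the APH peaks. The log2 difference of neighbouring shared regions ran from -0.035 to 0.0022, the upper value without APH replicate 1. The ratio and the counts change partly by construction, because the rule is then met by both remaining samples.

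Same-numbered samples correlated at -0.0067, 0.477 and 0.515 in their deviations, not all above 0.1, and APH replicate 1 correlated best with DMSO replicate 2 (0.258), so the numbers were not taken as pairs. With the replicate block, limma called 441 of the 2747 neighbouring shared regions (16.1%; 50 higher, 391 lower) and 6604 of all 50150 (13.2%; 1021 higher, 5583 lower), and the paired exact permutation test gave p = 0.25 for these regions and for chromosome 8, the smallest it can give. Under the 10 other alternatives limma called 0 of the neighbouring regions. The alternatives on chromosome 8 and on the width of the APH peaks were added after seeing the data. Unknown depth limits all counts, since a missing peak does not show missing signal.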
